A study of Mus musculus with 30 samples.

Results

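Interferon-stimulated genes are transcribed when a cell senses an interferon, and 36 of them, chosen by gene symbol, were read in mouse livers that had or had lost the transcription factor CEBPA in hepatocytes. All 36 were found among the 55450 genes of the count table. The data were stranded poly(A) RNA-Seq libraries of whole liver from 30 male mice on a C57BL/6N background fed HFCFD, a diet rich in fat, cholesterol and fructose, in 3 experiments with 5 control and 5 knockout mice each. In HFCFD2W, Cebpa ΔHep mice, whose floxed Cebpa is deleted by a constitutive albumin-driven Cre, and Cebpa fl/fl mice ate the diet for 2 weeks. The deletion in Cebpa ΔHep,ERT2 mice, used in HFCFD8W+T10D and HFCFD12W+T10W, was made by an albumin-driven Cre that needs tamoxifen. Tamoxifen was given for the last 10 days in HFCFD8W+T10D, whose diet label is 8 weeks, and for the last 10 of 22 weeks of diet in HFCFD12W+T10W. Every control mouse carried the floxed alleles without Cre, and the controls of the inducible experiments received tamoxifen too. The albumin promoter directs Cre to hepatocytes, and the authors describe the loss as hepatocyte-specific. Cebpa was not read by cell type here, and the other liver cells are part of the whole-liver RNA. Ages were not given in the labels.

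Cebpa itself was measured at 149 to 193 CPM in Cebpa fl/fl livers and 3.43 to 5.68 CPM in Cebpa ΔHep livers of HFCFD2W (CPM, counts scaled to one common library total after TMM scaling of the libraries). It was at 121 to 156 and 11.1 to 25.1 CPM in HFCFD8W+T10D, and at 82.5 to 135 and 18.7 to 23.8 CPM in HFCFD12W+T10W, so the genotypes did not overlap in any experiment. The libraries held 7996128 to 10257366 counts each. Nothing in the labels ties a replicate to a litter or a batch, and p-values measure the spread between the 5 mice of a group.

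As background, type I interferons bind a receptor of IFNAR1 and IFNAR2, whose kinases JAK1 and TYK2 phosphorylate STAT2. With IRF9, STAT2 is part of a complex that binds the interferon-stimulated response element (ISRE) in promoters. Type II interferon, IFN-γ, acts through IFNGR1 and IFNGR2 on genes with a gamma-activated site (GAS). The genes that follow encode sensors of viral nucleic acid, the factors of the pathway itself, and proteins that block the copying of viruses, and hepatocytes as well as liver macrophages can transcribe them.

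The 36 genes lie on 14 chromosomes of GRCm38, several of them side by side. Ifit2, Ifit3, Ifit3b and Ifit1 lie within chr19:34550694-34650009, Gbp7, Gbp3 and Gbp2 within chr3:142530342-142638008, and Oas2, Oas3 and Oas1a within chr5:120730333-120907521. Rsad2 and Cmpk2 are neighbours on opposite strands of chr12, and Parp9 and Dtx3l overlap on opposite strands of chr16. The annotation calls Mx2 a polymorphic pseudogene and the others protein-coding.

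The promoter windows that RefSeq gives for GRCm38.p6 (300 bases, from 250 before to 50 after the start) were found for 27 of the genes, in 33 windows. The letters GAAANNGAAA, the core of an ISRE, stood on either strand of a window in 15 of the 27 genes and in 48.5% of their windows, against 3.44% of all 32851 windows. The letters TTCNNNGAA, a GAS, stood in 6 of the 27 genes and 18.2% of their windows, against 8.3% of all. Matches may overlap, as a GAS and an ISRE do in Bst2. The 120 bases before the start are printed for 6 genes whose values are given further on, each on its coding strand, with ISRE and GAS letters in capitals. Isg15 (chr4:156200819-156200938, minus strand) holds 3 chained ISRE matches, Ifit1 (chr19:34640769-34640888, plus strand) 2 separate ones and Rsad2 (chr12:26456453-26456572, minus strand) 1. Oas1a (chr5:120907526-120907645, minus strand) and Gbp7 (chr3:142530216-142530335, plus strand) hold both kinds, and Irf1 (chr11:53769894-53770013, plus strand) a GAS and no ISRE.
Isg15: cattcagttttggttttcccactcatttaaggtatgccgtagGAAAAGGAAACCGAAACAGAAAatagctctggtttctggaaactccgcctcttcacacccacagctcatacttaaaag
Ifit1: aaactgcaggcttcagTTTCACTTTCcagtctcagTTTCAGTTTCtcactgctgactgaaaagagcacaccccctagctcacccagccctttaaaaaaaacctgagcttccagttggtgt
Rsad2: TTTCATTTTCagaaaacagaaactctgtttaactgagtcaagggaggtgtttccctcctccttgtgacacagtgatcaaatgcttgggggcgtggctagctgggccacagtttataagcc
Oas1a: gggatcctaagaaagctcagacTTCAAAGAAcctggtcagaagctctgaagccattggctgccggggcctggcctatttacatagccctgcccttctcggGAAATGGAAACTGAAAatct
Gbp7: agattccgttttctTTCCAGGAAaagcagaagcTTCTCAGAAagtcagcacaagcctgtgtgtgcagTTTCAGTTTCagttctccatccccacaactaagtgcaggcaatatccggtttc
Irf1: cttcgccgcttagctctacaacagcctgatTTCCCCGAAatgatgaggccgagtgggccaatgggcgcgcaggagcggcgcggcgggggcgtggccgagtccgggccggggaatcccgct

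**Figure D1:**
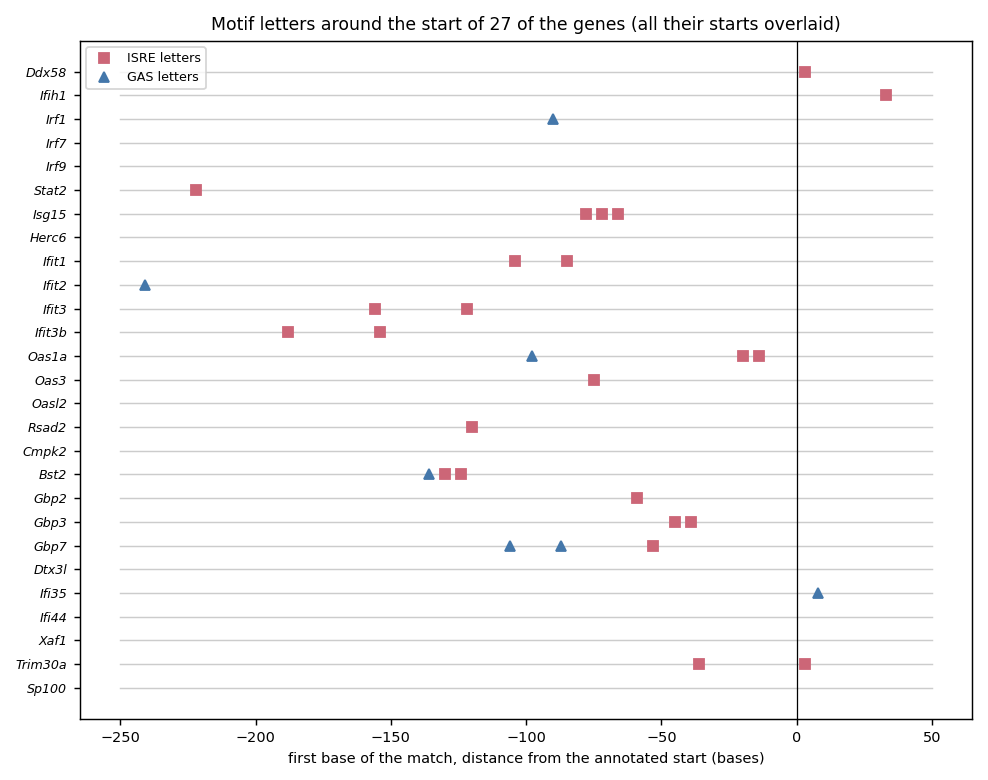
Distance from the start (x axis, bases) of each ISRE and GAS match in the promoter windows of 27 genes (y axis), by motif. Matches stand in 15 genes for the ISRE and in 6 for the GAS.

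Knockout livers held higher levels of most of these genes in both tamoxifen experiments and of few in HFCFD2W. Passing the test means here an adjusted p under 0.05 in edgeR's quasi-likelihood test, adjusted over all genes tested. In HFCFD2W, 4 of 35 genes tested were higher in knockout livers and 1, Irf1, was lower, which is 11.4% and 2.86% of the members against 8.6% and 8.09% of all 11068 genes. In HFCFD8W+T10D, 28 of 36 were higher and 0 lower, 77.8% against 10.3% of 11990 genes that were higher (6.85% were lower). In HFCFD12W+T10W, 26 of 36 were higher and 0 lower, 72.2% against 27.4% of 12463 genes (23.8% were lower). In this fit, the share of the members that were higher was thus close to that of all genes in HFCFD2W and above it in the inducible experiments. At an unadjusted p under 0.05, 14, 33 and 29 members differed, beside 31.2%, 31.1% and 56.8% of all genes. More than 2-fold higher were 3, 18 and 18 members, against 1.69%, 4.09% and 14.3% of all genes.

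**Figure D2:**
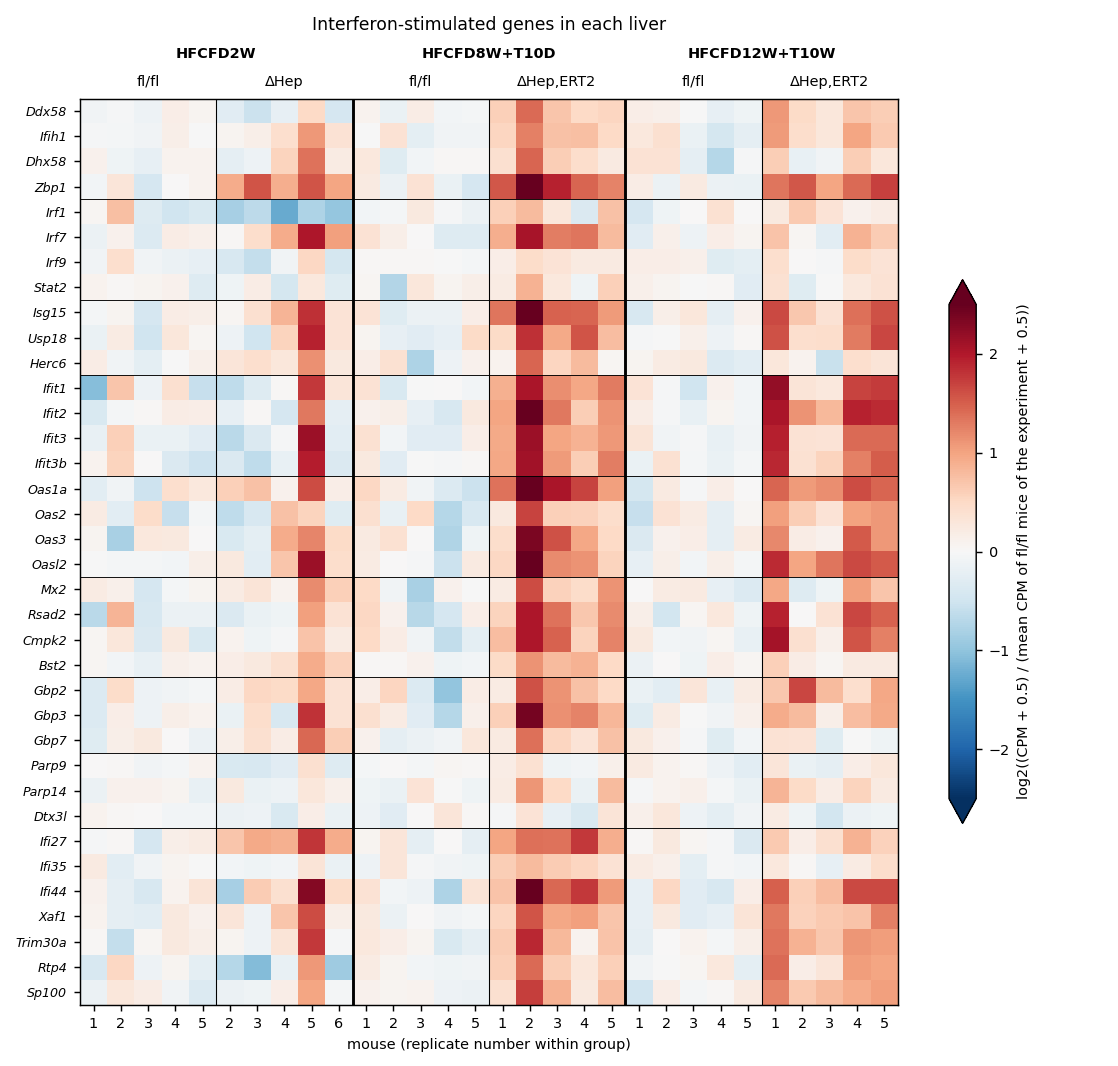
Each cell is the log2 ratio of a mouse's CPM to the mean of the control livers of its experiment, both with 0.5 CPM added, for 36 genes (rows) in 30 mice (columns, by experiment and genotype). Knockout replicate 5 of HFCFD2W and replicate 2 of HFCFD8W+T10D stand out along nearly the whole list.

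Taking the experiments in order of diet time, the median log2 fold change of the members was 0.53, 1.06 and 0.97, which are folds of 1.44, 2.08 and 1.97. The median of all genes tested was 0.01 in each experiment. All 5 knockout livers lay above all 5 controls for 4, 24 and 15 members in the same order, beside 6.33%, 6.01% and 19.6% of all genes. Zbp1, Irf7, Bst2 and Ifi27 were higher in all 3 experiments. Both inducible experiments shared 24 higher members, with Dhx58, Irf9, Gbp7 and Ifi35 passing in HFCFD8W+T10D alone and Oas2 and Parp14 in HFCFD12W+T10W alone. Irf1, Stat2, Herc6, Mx2, Parp9 and Dtx3l were higher in none. The shares of all genes that were higher in both inducible experiments or in all 3 were not computed. Of the 15 genes with ISRE letters in the window, 1, 14 and 13 were higher in the 3 experiments in the order above, and of the 12 without, 1, 9 and 7.

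**Figure D3:**
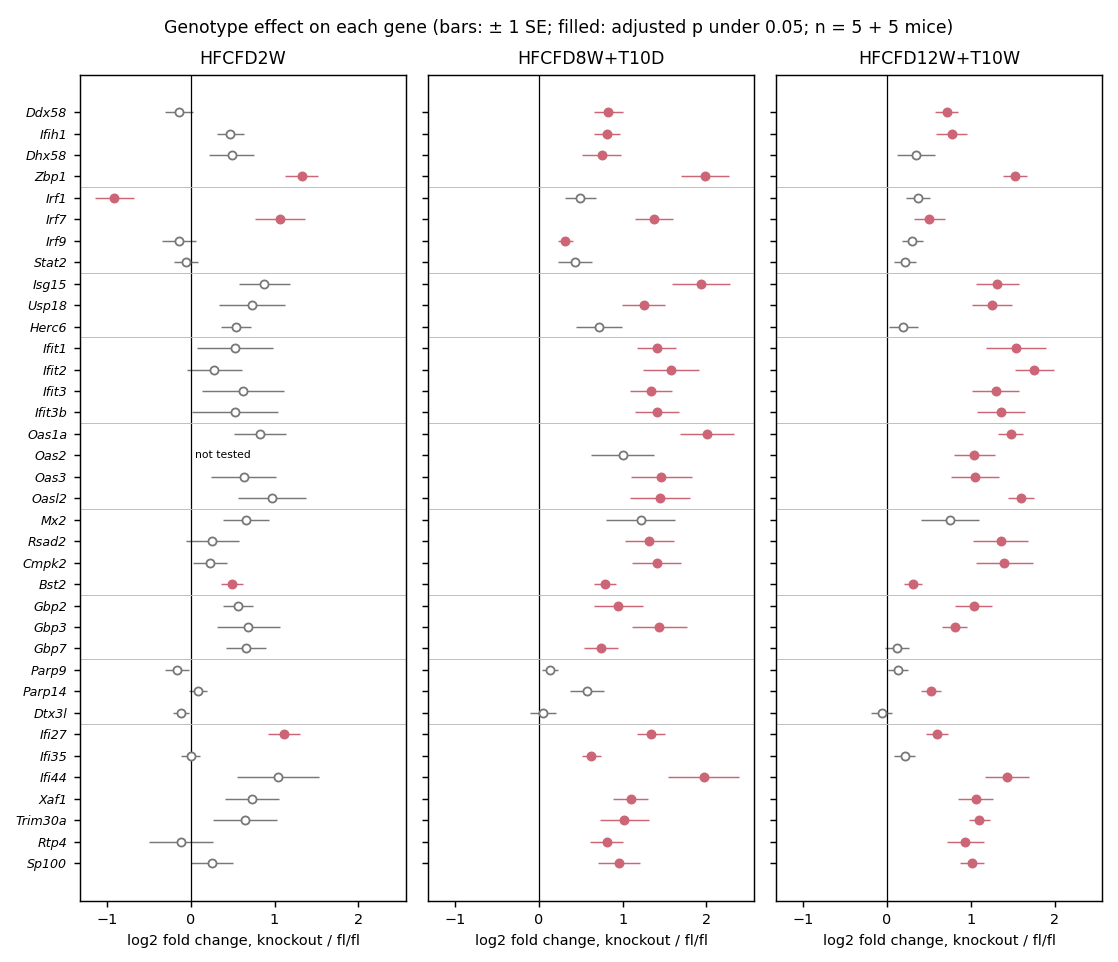
Log2 fold change of knockout over control livers (x axis, bars 1 SE) of the members (y axis) in each experiment, filled where the adjusted p was under 0.05. Filled points number 5, 28 and 26 in the panels from left to right.

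Values per mouse are CPM, listed by replicate number (1 to 5, and 2 to 6 for Cebpa ΔHep mice), and levels of a group are mean ± SD with n = 5 mice. The first genes are sensors. Zbp1, which binds left-handed nucleic acid and can start cell death, had the smallest adjusted p of the sensors in all 3 experiments. In HFCFD2W it was measured at 4.16, 5.49, 3.15, 4.42 and 4.68 CPM in Cebpa fl/fl and 8.76, 13.9, 8.65, 13.9 and 9.13 CPM in Cebpa ΔHep livers. In HFCFD8W+T10D Zbp1 stood at 7.18, 5.43, 7.99, 5.38 and 4.43 CPM in controls and 18.8, 42.4, 24.4, 17.4 and 15.1 CPM in knockouts, and in HFCFD12W+T10W at 7.72, 6.005, 7.93, 6.08 and 5.96 and 17.7, 20.8, 13.9, 18.7 and 23.1 CPM. The genotypes were apart in every experiment, with log2 fold changes of 1.33 (SE 0.20), 1.98 (SE 0.28) and 1.53 (SE 0.15) and adjusted p of 0.000684, 0.000591 and 3.91e-06.

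Ddx58, which encodes RIG-I, and Ifih1, which encodes MDA5, sense viral RNA in the cytoplasm and signal through MAVS. Ddx58 was measured in HFCFD8W+T10D at 19.8, 16.6, 21.2, 17.7 and 18.003 CPM in controls and 28.4, 50.8, 30.7, 26.5 and 27.3 CPM in knockouts (log2 fold change 0.83, SE 0.18, adjusted p 0.00757). In HFCFD12W+T10W it stood at 24.7, 24.2, 21.8, 19.1 and 20.3 and 47.1, 30.9, 26.9, 36.1 and 34.2 CPM (0.71, SE 0.14, adjusted p 0.000764). No knockout liver of either experiment fell within the control range. In HFCFD2W, by contrast in sign, 4 Cebpa ΔHep livers held less Ddx58 than every control and replicate 5 more, at 31.5, 26.4, 33.4, 54.3 and 28.9 against 36.2, 37.7, 35.4, 43.2 and 40.2 CPM, and the gene did not pass (-0.14, adjusted p 0.607).

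Ifih1 was at 28.7, 37.3, 24.1, 26.9 and 26.96 CPM in controls and 42.2, 69.9, 47.9, 48.5 and 41.1 CPM in knockouts of HFCFD8W+T10D, and at 39.8, 44.0, 29.3, 24.2 and 28.1 and 70.0, 44.9, 40.6, 66.0 and 52.4 CPM in HFCFD12W+T10W, where knockout replicate 3 lay inside the control range. Both differences passed (log2 0.81 and 0.77, adjusted p 0.00463 and 0.00350), and that of HFCFD2W did not (0.47, adjusted p 0.0634). Dhx58, which encodes LGP2, a helper of these sensors, was at 11.1, 7.37, 8.69, 9.45 and 9.35 and 12.4, 26.2, 14.3, 12.6 and 10.8 CPM in HFCFD8W+T10D (0.75, adjusted p 0.0407). Its groups overlapped, and without knockout replicate 2 it no longer passed. Dhx58 averaged 8.05 ± 2.46 CPM in controls and 9.91 ± 2.66 CPM in knockouts of HFCFD12W+T10W (adjusted p 0.226).

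Of the transcription factors, Irf7, the amplifier of type I interferon production, was higher in all 3 experiments. It was measured at 43.5, 52.1, 37.9, 54.6 and 52.8 CPM in controls and 48.9, 65.4, 92.2, 197 and 98.7 CPM in knockouts of HFCFD2W, where replicate 2 overlapped the controls (1.07, SE 0.30, adjusted p 0.0278). In HFCFD8W+T10D the values were 101, 87.8, 78.9, 63.2 and 62.6 and 149, 332, 193, 199 and 136 CPM, with no overlap (1.37, SE 0.23, adjusted p 0.00177). HFCFD12W+T10W gave 46.3, 62.1, 51.7, 63.3 and 59.5 and 93.0, 58.7, 47.0, 103 and 88.2 CPM, and knockout replicates 2 and 3 lay within the control range (0.51, SE 0.19, adjusted p 0.0395).

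Irf1, which is best known as a target of IFN-γ, took another course. All 5 Cebpa ΔHep livers of HFCFD2W, at 8.28, 9.43, 6.08, 8.69 and 7.52 CPM, lay below the controls, at 15.7, 26.1, 12.1, 10.6 and 11.5 CPM (log2 -0.91, SE 0.23, adjusted p 0.0190). In HFCFD8W+T10D it averaged 22.5 ± 2.55 CPM in controls and 31.2 ± 8.98 CPM in knockouts (adjusted p 0.0874), and in HFCFD12W+T10W 16.8 ± 3.44 and 21.1 ± 3.38 CPM, where the adjusted p of 0.0500098 lay just past the threshold. No other member was lower in knockout than in control livers of an experiment when all mice were kept.

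Irf9, the DNA-binding subunit of the ISRE complex, was at 23.3, 23.3, 23.3, 22.8 and 22.04 CPM in controls and 25.9, 31.8, 29.3, 27.04 and 26.97 CPM in knockouts of HFCFD8W+T10D. These groups did not overlap, although the difference was small (0.31, adjusted p 0.0271), and it was no longer called without knockout replicate 2. Stat2, its partner, passed in no experiment, with log2 fold changes of -0.056, 0.43 and 0.21 and adjusted p of 0.829, 0.178 and 0.204.

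The ISG15 system attaches a ubiquitin-like protein, ISG15, to other proteins, with Usp18 as the protease that removes it and Herc6 as a ligase. Isg15 was measured at 9.27, 5.69, 6.49, 6.40 and 8.07 CPM in controls and 18.8, 59.9, 20.8, 20.5 and 15.5 CPM in knockouts of HFCFD8W+T10D (1.93, SE 0.35, adjusted p 0.00310), and at 4.99, 7.48, 8.27, 5.74 and 7.27 and 22.3, 10.99, 8.78, 18.4 and 21.4 CPM in HFCFD12W+T10W (1.32, SE 0.26, adjusted p 0.000875). Every knockout liver exceeded every control in both. In HFCFD2W, with 10.5, 11.6, 8.04, 12.6 and 12.2 and 11.4, 14.7, 20.3, 40.0 and 14.1 CPM, the groups overlapped and Isg15 did not pass (0.88, adjusted p 0.0648).

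Usp18 was at 11.9, 9.83, 9.27, 9.75 and 15.9 and 16.02, 41.5, 22.3, 34.6 and 19.8 CPM in HFCFD8W+T10D (1.25, adjusted p 0.00607) and at 11.2, 11.4, 12.5, 10.4 and 11.7 and 35.4, 15.5, 15.7, 28.9 and 37.5 CPM in HFCFD12W+T10W (1.26, adjusted p 0.000777), controls first, again without overlap. Herc6 passed in no experiment. Its closest was HFCFD2W, with 17.96, 14.7, 13.2, 15.6 and 17.3 CPM in controls and 19.5, 21.2, 19.3, 35.1 and 18.7 CPM in knockouts, where the groups did not overlap and the adjusted p was 0.0518.

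**Figure D4:**
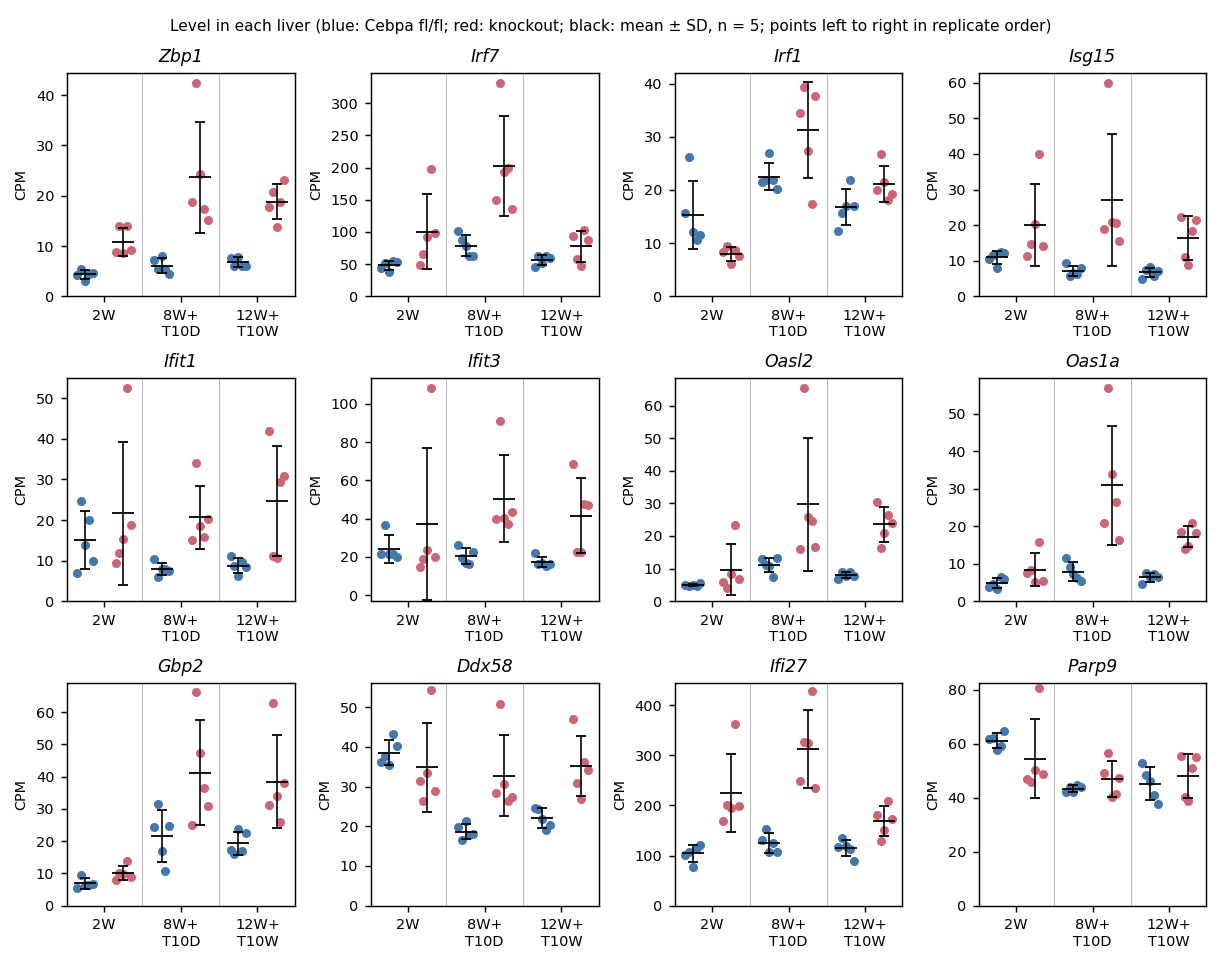
CPM per mouse (y axis, linear) of 12 members in the 6 groups (x axis), with the mean and SD of each group. In HFCFD2W the knockout points of Ifit1, Ifit3 and Oasl2 lie near the controls except replicate 5.

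The IFIT proteins bind foreign RNA and hold back its translation, and all 4 of their genes were higher in both inducible experiments and none in HFCFD2W. Ifit1 was measured in HFCFD8W+T10D at 10.3, 5.95, 7.88, 7.92 and 7.48 CPM in controls and 14.99, 34.1, 18.4, 15.9 and 20.1 CPM in knockouts (1.41, SE 0.23, adjusted p 0.00147). Ifit2 gave 8.11, 8.28, 6.37, 5.49 and 8.95 and 15.3, 46.1, 19.2, 11.7 and 16.7 CPM there (1.58, adjusted p 0.00732), and Ifit3 26.3, 19.1, 16.6, 16.5 and 22.6 and 39.5, 91.2, 40.3, 37.4 and 43.7 CPM (1.34, adjusted p 0.00353). None of the groups overlapped, nor did those of Ifit3b, a close copy of Ifit3 among which reads can be split, at 5.21, 3.49, 4.29, 4.27 and 4.43 and 8.99, 20.2, 9.64, 6.88 and 11.3 CPM (1.41, adjusted p 0.00369).

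HFCFD12W+T10W had its largest difference of all members in Ifit2, at 6.53, 5.55, 4.94, 5.97 and 5.35 CPM in controls and 25.02, 12.9, 10.3, 22.99 and 21.9 CPM in knockouts (1.76, SE 0.24, adjusted p 5.23e-05). Ifit1 was at 11.2, 8.61, 6.09, 9.53 and 8.38 and 41.9, 11.1, 10.6, 29.4 and 30.8 CPM, with knockout replicates 2 and 3 at the top of the control range (1.54, SE 0.36, adjusted p 0.00292). Those same replicates were the lowest knockouts for Ifit3, at 21.98, 16.4, 17.002, 15.4 and 16.5 and 68.5, 22.5, 22.3, 47.4 and 47.3 CPM (1.30, adjusted p 0.00182), and for Ifit3b, at 3.56, 5.44, 3.91, 3.56 and 3.94 and 16.4, 5.45, 6.25, 10.4 and 12.6 CPM (1.37, adjusted p 0.00153). In HFCFD2W the IFIT genes were high in knockout replicate 5 alone. For Ifit3 the Cebpa ΔHep livers held 14.9, 18.6, 23.7, 108 and 20.1 CPM and the controls 21.2, 36.8, 21.3, 21.5 and 19.7 CPM, and the log2 fold changes of Ifit1, Ifit2, Ifit3 and Ifit3b of 0.53, 0.28, 0.63 and 0.52 became -0.13, -0.21, -0.32 and -0.42 without that mouse. None of these 8 values passed.

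The OAS enzymes make the oligoadenylates that activate RNase L, and Oasl2 is a relative of theirs. Oas1a had the largest log2 fold change of any member in HFCFD8W+T10D, 2.01 (SE 0.33, adjusted p 0.00145), from 11.5, 9.06, 7.30, 6.10 and 5.21 CPM in controls to 20.7, 56.8, 33.9, 26.3 and 16.3 CPM in knockouts. In HFCFD12W+T10W it was at 4.51, 7.48, 6.20, 7.12 and 6.36 and 18.3, 13.9, 14.7, 20.7 and 18.1 CPM (1.47, SE 0.15, adjusted p 5.69e-06). Neither pair of groups overlapped. Oasl2 stood at 12.9, 11.1, 10.8, 7.52 and 13.1 and 16.1, 65.4, 25.9, 24.6 and 16.5 CPM in HFCFD8W+T10D (1.45, adjusted p 0.0152) and at 6.89, 8.95, 7.58, 8.95 and 7.67 and 30.5, 16.3, 20.9, 26.4 and 24.04 CPM in HFCFD12W+T10W (1.60, adjusted p 4.98e-06), also apart. Oas1a has near copies in the mouse genome, so its counts are uncertain.

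Oas3 was measured at 7.65, 8.54, 6.49, 3.66 and 6.001 CPM in controls and 8.99, 35.2, 20.4, 13.2 and 9.40 CPM in knockouts of HFCFD8W+T10D (1.46, adjusted p 0.0170). In HFCFD12W+T10W, with 2.97, 4.31, 4.48, 3.33 and 4.64 and 9.76, 4.53, 4.31, 12.3 and 8.90 CPM (1.05, adjusted p 0.00850), knockout replicates 2 and 3 lay among the controls. Oas2 was low everywhere and too low for the test in HFCFD2W, at 0.454 ± 0.263 and 0.517 ± 0.438 CPM. It passed in HFCFD12W+T10W, with overlap, at 1.07, 2.49, 2.18, 1.49 and 1.92 and 4.27, 3.05, 2.45, 4.20 and 4.45 CPM (1.04, adjusted p 0.00328), and not in HFCFD8W+T10D (1.00, adjusted p 0.0860).

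Among the other antiviral effectors, Bst2, which encodes the tether tetherin, was the member with the highest level per length and was higher in all 3 experiments by small amounts. It was at 149.6, 138, 127, 158 and 154 CPM in controls and 163, 173, 191, 275 and 216 CPM in knockouts of HFCFD2W (0.49, SE 0.13, adjusted p 0.0219) and at 198, 200.1, 211, 181 and 187 and 274, 425, 339, 357 and 275 CPM in HFCFD8W+T10D (0.79, SE 0.13, adjusted p 0.00185), without overlap in either. HFCFD12W+T10W gave 144, 161, 148, 179 and 166 and 239.8, 182, 164, 187 and 187 CPM with overlap (0.31, SE 0.10, adjusted p 0.0221). There, Bst2 did not pass without knockout replicate 1.

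Rsad2, which encodes viperin, and its neighbour Cmpk2, a nucleotide kinase, were both higher in the inducible experiments. Rsad2 was at 17.5, 12.9, 7.30, 8.94 and 13.6 CPM in controls and 18.1, 50.3, 31.9, 19.6 and 27.9 CPM in knockouts of HFCFD8W+T10D (1.32, adjusted p 0.00966) and at 10.8, 6.91, 9.99, 11.7 and 8.89 and 37.8, 9.79, 12.5, 31.9 and 27.8 CPM in HFCFD12W+T10W (1.35, adjusted p 0.00442). Cmpk2 was at 9.15, 7.24, 5.91, 3.96 and 5.21 and 11.1, 27.1, 18.4, 9.49 and 15.5 CPM (1.40, adjusted p 0.00684) and at 5.35, 4.19, 4.14, 4.59 and 3.84 and 20.4, 6.004, 4.90, 14.05 and 11.3 CPM (1.40, adjusted p 0.00425). Both genes were apart by genotype in HFCFD8W+T10D and overlapped in HFCFD12W+T10W, Rsad2 through knockout replicate 2 and Cmpk2 through replicate 3. Mx2, of the Mx family of antiviral GTPases, passed in no experiment, at 0.66, 1.21 and 0.76 on the log2 scale (adjusted p 0.121, 0.0581 and 0.0843) and group means of 0.995 to 2.94 CPM.

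The guanylate-binding proteins are GTPases that attack the vacuoles of intracellular pathogens and respond strongly to IFN-γ. Gbp2 was measured at 24.5, 31.6, 16.9, 10.7 and 24.7 CPM in controls and 24.9, 66.1, 47.5, 36.4 and 30.9 CPM in knockouts of HFCFD8W+T10D (0.95, adjusted p 0.0412), with overlap, and it was not called without knockout replicate 2. In HFCFD12W+T10W it was at 17.2, 16.1, 23.9, 16.9 and 22.4 and 31.3, 62.9, 33.9, 25.9 and 38.04 CPM, without overlap (1.03, adjusted p 0.00149). There its highest liver was knockout replicate 2, which was among the lowest knockouts for most members.

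Gbp3 was at 21.8, 18.8, 13.3, 9.75 and 17.9 and 24.7, 87.4, 36.8, 39.4 and 29.3 CPM in HFCFD8W+T10D (1.44, adjusted p 0.0104) and at 11.2, 15.97, 13.8, 12.97 and 15.1 and 26.6, 24.2, 15.4, 23.99 and 27.3 CPM in HFCFD12W+T10W (0.81, adjusted p 0.000643), where knockout replicate 3 overlapped the controls. Gbp7 passed in HFCFD8W+T10D alone, at 14.4, 11.3, 11.9, 12.5 and 16.1 and 15.6, 34.96, 19.5, 16.96 and 22.3 CPM (0.74, adjusted p 0.0275), and in HFCFD12W+T10W averaged 22.9 ± 3.24 and 24.2 ± 4.88 CPM (adjusted p 0.5004). In HFCFD2W none of these 3 genes passed in edgeR's test, the nearest being Gbp2 at 5.34, 9.65, 6.30, 6.48 and 6.67 and 7.93, 10.1, 9.73, 13.9 and 8.998 CPM (0.56, adjusted p 0.0516). The Gbp genes are similar in sequence, and their single values are uncertain for that reason.

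The ADP-ribosylation group held 1 call in all. Parp9 and Dtx3l, whose proteins work as a pair, passed in no experiment, with log2 fold changes of -0.16, 0.13 and 0.13 for Parp9 and -0.12, 0.052 and -0.065 for Dtx3l. The strand setting of the read counting is not given in the sources used here, so the reads of these overlapping genes may have been shared and both values are uncertain. Parp14, another mono-ADP-ribosyltransferase, was at 37.3, 40.4, 41.8, 36.6 and 33.8 CPM in controls and 68.9, 53.1, 43.1, 56.5 and 44.6 CPM in knockouts of HFCFD12W+T10W, without overlap (0.53, SE 0.12, adjusted p 0.00275). In HFCFD8W+T10D it did not pass (0.57, adjusted p 0.0711).

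The last group holds genes of mixed role. Ifi27, which encodes a small membrane protein, was higher in all 3 experiments. Its levels were 102, 106, 77.5, 116 and 120.5 CPM in controls and 169.7, 200.4, 195, 363 and 199 CPM in knockouts of HFCFD2W (1.11, SE 0.19, adjusted p 0.00184). HFCFD8W+T10D gave 132, 154, 108, 126 and 107 and 249, 327, 323, 428 and 235 CPM (1.33, SE 0.17, adjusted p 0.000242), the smallest adjusted p of a member there. In HFCFD12W+T10W the values were 117, 136, 119, 113 and 89.4 and 180.2, 129.8, 151, 209 and 172 CPM (0.60, SE 0.13, adjusted p 0.00206), and only here did a knockout liver, replicate 2, lie within the control range.

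Ifi44 was at 9.27, 6.73, 6.49, 3.96 and 9.05 CPM in controls and 11.99, 64.2, 20.2, 25.4 and 15.3 CPM in knockouts of HFCFD8W+T10D (1.97, adjusted p 0.00795) and at 4.04, 7.02, 3.79, 3.44 and 5.35 and 14.3, 7.39, 8.45, 15.96 and 16.02 CPM in HFCFD12W+T10W (1.43, adjusted p 0.000536). Xaf1, which favours apoptosis, was at 5.79, 4.27, 4.87, 4.47 and 4.62 and 7.21, 15.3, 9.86, 10.3 and 8.07 CPM (1.10, adjusted p 0.00376) and at 3.56, 4.99, 3.33, 3.56 and 5.35 and 11.1, 6.47, 6.84, 7.11 and 10.7 CPM (1.06, adjusted p 0.000865). The genotypes were apart for both genes in both experiments. Ifi35 was apart in HFCFD8W+T10D, at 14.1, 19.4, 15.3, 14.5 and 14.4 and 23.98, 27.2, 24.4, 22.8 and 20.1 CPM (0.63, adjusted p 0.00365), and did not pass in HFCFD12W+T10W (0.21, adjusted p 0.177).

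Trim30a, of the TRIM family of ubiquitin ligases, was at 13.4, 12.4, 11.7, 8.33 and 9.44 and 17.5, 42.4, 19.8, 11.7 and 18.4 CPM in HFCFD8W+T10D, with overlap (1.02, adjusted p 0.0291), and at 9.03, 10.7, 11.4, 10.3 and 11.8 and 27.98, 19.9, 17.2, 23.5 and 22.6 CPM in HFCFD12W+T10W, without (1.10, adjusted p 1.93e-05). Rtp4, a receptor chaperone, was at 12.9, 11.6, 10.5, 10.3 and 10.4 and 17.1, 30.8, 17.2, 13.8 and 17.1 CPM (0.81, adjusted p 0.0141) and at 8.55, 9.06, 9.42, 11.02 and 7.57 and 25.1, 10.3, 11.4, 19.2 and 18.5 CPM (0.94, adjusted p 0.00359), controls first in each pair. Of these, Rtp4 overlapped in HFCFD12W+T10W only. Sp100, a protein of nuclear bodies, was at 10.9, 10.6, 10.8, 9.14 and 9.05 and 13.5, 34.8, 18.7, 11.98 and 17.5 CPM (0.96, adjusted p 0.0201) and at 6.18, 9.97, 8.62, 9.07 and 10.5 and 21.5, 14.2, 15.7, 17.2 and 18.5 CPM (1.01, adjusted p 0.000101), apart in both.

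Per transcript length, in TPM, which also divides by transcript length, Bst2, Ifi27 and Irf7 had the highest mean levels of the members in all 6 groups, in that order. In Cebpa fl/fl livers of HFCFD8W+T10D they were at 371 ± 41.5, 202 ± 13.99 and 51.0 ± 8.85 TPM. After them came Parp9, Ifi35 and Isg15 at 17.4 ± 1.91, 14.8 ± 0.887 and 14.7 ± 3.46 TPM, 3 neighbours whose SD ranges met. In the knockout livers of that experiment the order after Irf7 was Isg15, Ifit3 and Zbp1, at 68.5 ± 58.9, 44.4 ± 28.8 and 31.9 ± 19.4 TPM, again with SD ranges that met. The lowest members of each group were Oas2, Oas3 and Mx2, at or under 5.28 TPM.

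The livers of one group differed among themselves along the whole list. In HFCFD2W, knockout replicate 5 was the highest knockout for 34 of 36 members and above every control for 35, while the other 4 Cebpa ΔHep livers were above every control for 9, 14, 16 and 16. The share of all genes above every control was not computed for single livers, in this or the other experiments. Such counts per liver therefore have no background beside them. The mean of log2(CPM + 0.5) over the members was 4.88 in replicate 5 and 3.59 to 3.87 in the others, beside 3.66 ± 0.10 in controls (SD, n = 5). Without replicate 5, the members higher were again Zbp1, Irf7, Bst2 and Ifi27, with log2 fold changes of 1.22, 0.66, 0.35 and 0.87. Lower were Irf1 at -0.94, Rtp4 at -0.72, Ddx58 at -0.36 and Parp9 at -0.35, and the median of the list was 0.12. Of all genes, 7.74% were higher and 7.42% lower in that fit. Replicate 5 was left out for its high values of these same members, so the lower calls follow in part from that choice. With all mice kept, Rtp4, Ddx58 and Parp9 did not pass edgeR's test (adjusted p 0.870, 0.607 and 0.461).

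In HFCFD8W+T10D, knockout replicate 2 was highest for 35 of 36 members, and the other knockout livers were each above every control for 28 to 33. Leaving it out gave 25 members higher, beside 7.07% of all genes, and a median of 0.78. In HFCFD12W+T10W, knockout replicates 1, 4 and 5 were above every control for 34, 32 and 32 members, and replicates 2 and 3 for 22 and 18. Those 2 livers were the lowest pair of knockouts for 29 of 36 members. Without replicate 1, which was highest for 20, 24 members were higher, beside 26% of all genes, with a median of 0.84.

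**Figure D5:**
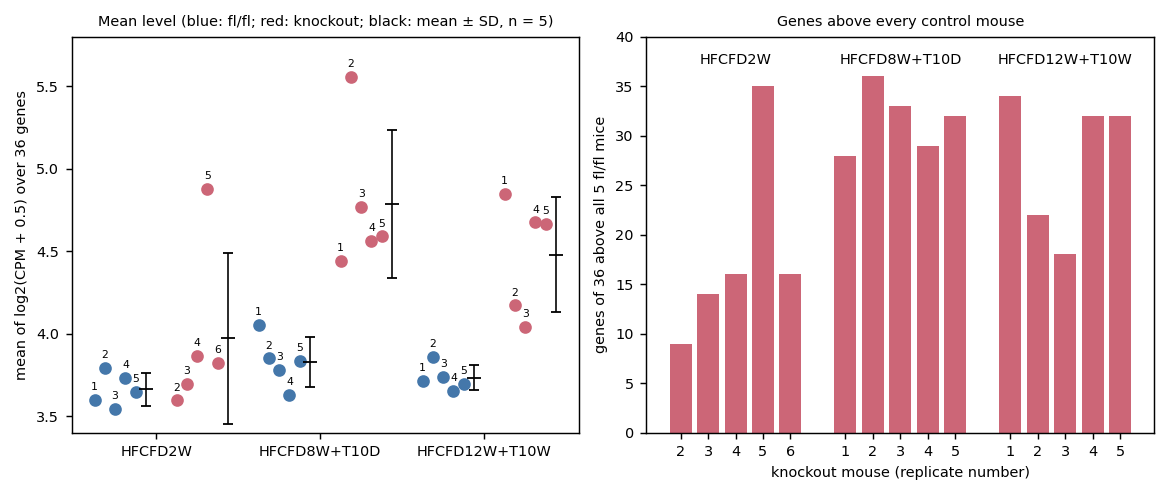
For each mouse, the mean of log2(CPM + 0.5) over the 36 members (points) and, for knockout mice, how many members lay above every control of the experiment (bars). Knockout livers range from 9 to 35 members in HFCFD2W, and from 28 to 36 and 18 to 34 in the 10-day and 10-week tamoxifen experiments. The same counts over all genes were not computed.

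When each of the 10 mice of an experiment was left out in turn, 3 of the 5 calls of HFCFD2W held in every fit (Zbp1, Ifi27 and Irf1). So did 22 of 28 after 10 days and 24 of 26 after 10 weeks of tamoxifen. The others were lost at least once. In HFCFD2W, Irf7 passed in 5 and Bst2 in 7 of the 10 fits, and in HFCFD12W+T10W Irf7 in 3 and Bst2 in 6. In HFCFD8W+T10D, Dhx58, Irf9 and Gbp2 passed in 4 fits each, Gbp7 and Trim30a in 7 each and Sp100 in 9.

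Markers of several other cell types moved with the members. For the marker counts that follow, 8.6%, 10.3% and 27.4% of all genes were higher in HFCFD2W, HFCFD8W+T10D and HFCFD12W+T10W. The shares that were lower were 8.09%, 6.85% and 23.8%. The summed level of 3 pan-leukocyte markers ran from 21.7 to 24.8 CPM in controls and from 24.1 to 40.0 CPM in knockouts of HFCFD2W, from 49.6 to 81.6 and 90.9 to 216 CPM in HFCFD8W+T10D, and from 31.6 to 64.8 and 115 to 155 CPM in HFCFD12W+T10W. They passed upward for 1, 3 and 3 of 3 genes. Of 11 macrophage markers, 3 of 9 tested, 7 of 11 and 8 of 11 were higher and 1 was lower, in HFCFD12W+T10W. Their sum ran from 225 to 309 against 272 to 427 CPM, from 641 to 1189 against 1087 to 2066 CPM and from 306 to 866 against 982 to 1191 CPM. In whole liver, a change in the number of cells of a type and in RNA per cell cannot be told apart.

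The knockout liver highest in these sums was also highest for the members in HFCFD2W (replicate 5) and HFCFD8W+T10D (replicate 2). In HFCFD12W+T10W it was replicate 2, at 155 CPM of leukocyte and 1191 CPM of macrophage markers, which was low for most members. T and NK cell markers passed for 0, 0 and 3 genes, of 1, 2 and 4 tested, with sums of at most 20.4 CPM. B cell markers passed for 1 gene of 1 tested in HFCFD12W+T10W and for none of 2 in HFCFD8W+T10D. Neutrophil markers passed upward for 1 of 3 after 10 days of tamoxifen, with sums of 2.74 to 24.6 CPM in controls and 5.22 to 14.3 CPM in knockouts, and for 3 of 3 after 10 weeks, with 3.51 to 8.04 and 12.99 to 70.9 CPM.

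Markers of stellate cells and fibroblasts, the collagen-making cells of the liver, were higher for 1, 2 and 6 of 6 genes. Their sum was 60.9 to 128 against 82.9 to 163 CPM in HFCFD2W, 136 to 254 against 267 to 615 CPM in HFCFD8W+T10D, and 90.7 to 134 against 667 to 890 CPM in HFCFD12W+T10W, so that the genotypes were apart in both inducible experiments. Cholangiocyte markers, of the bile duct lining, were higher for 0 of 1, 2 of 4 and 4 of 4 genes, with sums after 10 weeks of 3.22 to 5.05 CPM in controls and 31.8 to 54.9 CPM in knockouts. Endothelial markers were higher for 0 of 6 in each experiment and lower for 0, 1 and 2. Of 7 hepatocyte markers 1, 4 and 3 were lower and 0 higher. The hepatocyte sum was 113830 to 147921 CPM in controls and 114957 to 166809 CPM in knockouts of HFCFD2W. It was 115646 to 146165 against 78604 to 127894 CPM in HFCFD8W+T10D. Only in HFCFD12W+T10W were the genotypes apart, at 98553 to 121901 against 63118 to 69314 CPM. Siglech and Ccr9, which mark the plasmacytoid dendritic cells that make much interferon, were too low for the test in every experiment. The part of cell content in the members' levels was not tested.

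Whether the genotype effects differed between experiments was tested by interaction terms of a single edgeR model over the 30 libraries, whose contrasts share mice. From HFCFD2W to HFCFD8W+T10D, 3 members had a larger effect and 0 a smaller one, beside 4.45% and 6.79% of 12964 genes. They were Irf1 by 1.40 on the log2 scale (SE 0.30, adjusted p 0.00253), Ddx58 by 0.96 (SE 0.25, adjusted p 0.0108) and Ifi35 by 0.61 (SE 0.17, adjusted p 0.0195). From HFCFD2W to HFCFD12W+T10W, 3 were larger and 0 smaller, beside 13.4% and 17.3% of all genes. These were Irf1 by 1.24 (SE 0.30, adjusted p 0.00242), Ddx58 by 0.82 (SE 0.24, adjusted p 0.0120) and Ifit2 by 1.44 (SE 0.49, adjusted p 0.0264), which held in 29 of 30 fits with a mouse left out. The calls for Irf1, Ddx58 and Ifi35 held in all 30. Mouse line, diet time, tamoxifen and experiment cannot be told apart in the contrasts with HFCFD2W. Diet time, length of tamoxifen and experiment cannot be told apart between the inducible experiments.

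Between the inducible experiments, 1 member, Ifi27, had a smaller effect in HFCFD12W+T10W than in HFCFD8W+T10D, by -0.77 (SE 0.25, adjusted p 0.0490), and 0 a larger one, beside 5.49% and 4.97% of all genes. The call for Ifi27 was lost without the low-count filter (adjusted p 0.0591) and with upper quartile scaling (0.0833), held with DESeq2 (0.0448), and held in 8 of the 30 fits that left out a mouse (0.0189 to 0.119). Most members that passed in an inducible experiment and not in HFCFD2W were therefore not shown to differ in effect between them. Without knockout replicate 5 of HFCFD2W, the effect in that experiment was exceeded by that in HFCFD8W+T10D for 14 members and by that in HFCFD12W+T10W for 15, beside 4.49% and 13.4% of all genes in the same fit. Rtp4 was among both, with differences of 1.51 (adjusted p 0.00460) and 1.60 (adjusted p 0.000902), as was Ifit3b with 1.82 (adjusted p 0.00563) and 1.74 (adjusted p 0.00285). Replicate 5 was left out for its high values of these same members. The rise to 14 and 15 follows in part from that choice and does not show a difference between experiments. With knockout replicate 2 of HFCFD8W+T10D left out instead, Ddx58, Irf1 and Ifi35 were larger there than in HFCFD2W, as with all mice. Without knockout replicate 1 of HFCFD12W+T10W, Ddx58, Irf1 and Ifit2 were larger there, again as with all mice.

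Some members also differed between control livers. From HFCFD2W to HFCFD8W+T10D, 10 members were higher and 4 lower in Cebpa fl/fl livers. These were 27.8% and 11.1% of the members, beside 22.2% and 21.5% of all genes. The share that was higher was thus near that of all genes, and the share that was lower was below it. Higher were Oas2 by 2.04, Oas3 by 1.91, Gbp2 by 1.65, Gbp3 by 1.31 and Oasl2 by 1.16 on the log2 scale, and Trim30a, Sp100, Irf7, Irf1 and Bst2 by 1.08 to 0.43. Lower were the sensors Ddx58 and Ifih1, by -1.05 and -0.83, with Ifi35 by -0.79 and Parp9 by -0.50. From HFCFD8W+T10D to HFCFD12W+T10W, Gbp7 alone was higher, by 0.79 (SE 0.22, adjusted p 0.0171), and 0 were lower, beside 6.31% and 5.12%. Diet time, tamoxifen, mouse line and experiment cannot be told apart in these differences.

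Genes of the pathway outside the 36 were read from lists chosen by function. Of 13 receptors and ligands, 5 could be tested, all of them receptor chains. Beside their counts, 8.6%, 10.3% and 27.4% of all genes were higher in HFCFD2W, HFCFD8W+T10D and HFCFD12W+T10W. None passed in HFCFD2W in edgeR's test, where the unadjusted p was under 0.05 for 1 of the 5. In HFCFD8W+T10D 4 were higher, Ifnar2 by 0.41, Ifngr1 by 0.49, Ifngr2 by 0.50 and Il10rb, a chain of the type III and interleukin-10 receptors, by 0.85. In HFCFD12W+T10W 3 were higher, Ifngr1 by 0.93, Ifngr2 by 0.68 and Il10rb by 1.15. Ifnar1 passed in none.

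The mRNAs of the interferon genes on the list were hardly read, and other interferon genes were not looked up. Ifna1, Ifna2, Ifna4, Ifnl2 and Ifnl3 had 0 counts in all 30 libraries. Ifnb1 had 1 count in 1 knockout library of HFCFD8W+T10D. Ifng had 1 count in controls and 2 in knockouts of HFCFD8W+T10D, and 1 and 3 in HFCFD12W+T10W, where the 3 came from 1 library. A count of 0 allows up to 3 counts in a library, which is 0.243 to 0.445 CPM at these depths, for counting error only.

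Of 12 signalling genes tested, 1 was higher and 1 lower in HFCFD2W. After 10 days of tamoxifen these numbers were 3 and 1, and after 10 weeks 6 and 3. Of all genes, 8.6%, 10.3% and 27.4% were higher and 8.09%, 6.85% and 23.8% lower, so that the shares in HFCFD2W and of lower genes after 10 weeks were near the background. Irf3, the factor that switches on type I interferon genes, was lower in HFCFD2W (-0.35, adjusted p 0.00665) and HFCFD12W+T10W (-0.38, adjusted p 0.00416) and did not pass in HFCFD8W+T10D (-0.16, adjusted p 0.413). Irf8, a factor of macrophages and dendritic cells, was higher by 0.56, 0.79 and 1.21, while Irf2, which can repress ISRE genes, was lower by -0.69 and -0.60 in the inducible experiments. Irf5, a factor downstream of Toll-like receptors, was higher by 1.04 in HFCFD12W+T10W, and Ptpn6, which encodes the phosphatase SHP-1, by 0.63 and 0.80 in the inducible experiments. Of the sensing genes upstream of interferon, 0 of 9, 4 of 10 and 5 of 10 were higher and 1 was lower in each experiment. Tlr7 (1.03 and 1.43), Tlr9 (1.50 and 1.72) and Tmem173, which encodes STING (0.96 and 1.59), were higher in both inducible experiments, where Mavs, the adaptor of RIG-I and MDA5, was lower (-0.42 and -0.81).

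Of 65 other interferon-stimulated genes, 9 of 58 tested were higher and 2 lower in HFCFD2W. After 10 days of tamoxifen 40 of 60 were higher, after 10 weeks 49 of 62, and 0 were lower at either time, beside the same shares of all genes. Their median log2 fold changes were 0.29, 0.80 and 0.82. Ly6e, a GPI-anchored protein that restricts coronaviruses, had the smallest adjusted p of this list in HFCFD2W (1.13, adjusted p 0.000129) and HFCFD8W+T10D (1.75, adjusted p 0.000105). In HFCFD2W it was followed by Ifitm3 (0.62, adjusted p 0.000298), and in HFCFD8W+T10D by Ly6a (3.50, adjusted p 0.000274). In HFCFD12W+T10W the smallest was that of Gbp9 (1.98, adjusted p 4.56e-07). As among the 36 members, few of these genes were called in HFCFD2W and most in the inducible experiments.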

How the data were processed

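Liver poly(A) RNA was sequenced from 30 male mice, 1 stranded library per mouse, in 6 groups of 5. The submitters' processing notes name Trimmomatic 0.36, STAR 2.5.1, Picard 1.84, RSEM 1.2.22, DESeq2 and the mm10 genome. The authors deposited RSEM expected counts per gene without normalization, and 3.25% of them were not whole, since RSEM shares ambiguous reads among genes. The authors also deposited TPM values per library, used here to compare levels between genes, and a signal table of TMM-normalized values for 15010 genes, used in an alternative. RPKM values were not used. All libraries differed from one another, and no count column was without a sample.

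Expected counts were rounded. In R 4.3.3, low genes were left out with filterByExpr (edgeR 4.0.16), libraries were scaled by TMM, and the genotypes of each experiment were compared with edgeR's quasi-likelihood F test, with p-values adjusted over all genes tested (Benjamini-Hochberg). Members passed at an adjusted p under 0.05. CPM are counts over the TMM-scaled library total. The steps were tested on simulated data. Library totals ran from 7996128 to 10257366 counts, and intervals for counts cover counting error only.

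The 36 members, the pathway and marker lists and the tests were chosen with earlier results of these data known. All 36 members are named. They are given mouse by mouse where they passed, and the genes named of a pathway list are among its 4 with the smallest adjusted p in an experiment, besides Ifnar1, Siglech and Ccr9, chosen after their values were seen. A gene in the signalling counts is not reported by itself here. Alternatives were no filter, upper quartile scaling, DESeq2 1.42.0, limma 3.58.1 on log2 of the authors' signal values plus 1, the replicate number as a block, one model over all libraries, a fold over 2, and each mouse left out in turn. Promoter windows are RefSeq's for GRCm38.p6, and gene positions are those of GENCODE M21 on GRCm38.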

Additional observations from a re-analysis of the deposited data

Results flagged for a closer look

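In groups of 5 mice, the highest or lowest liver was compared with its nearest neighbour by Dixon's ratio, which chance passes in about 1 of 20 groups. Of 216 sets of a member and a group, 45 passed, and 32 of these were from 2 livers. Knockout replicate 5 of HFCFD2W stood apart for 19 members. Its mean of log2(CPM + 0.5) over all members, 4.88 against 3.59 to 3.87 in the other 4 knockout livers, passed too. The largest values of that liver, each against the range of the other 4 knockout livers, were Ddx58 at 54.3 CPM against 26.4 to 33.4, Ifih1 at 109 CPM against 53.7 to 68.4, Usp18 at 50.3 CPM against 8.98 to 19.3 and Herc6 at 35.1 CPM against 18.7 to 21.2. Also far above the rest were Ifit1 at 52.6 CPM against 9.47 to 18.8, Ifit2 at 14.2 CPM against 3.92 to 5.50, Ifit3 at 108 CPM against 14.9 to 23.7 and Ifit3b at 22.2 CPM against 3.25 to 4.60. The same held for Oas1a at 15.7 CPM against 5.14 to 8.19, Oasl2 at 23.4 CPM against 4.04 to 8.24, Gbp3 at 24.02 CPM against 4.87 to 9.09 and Gbp7 at 36.5 CPM against 14.6 to 20.4. Further apart from the others lay Parp9 at 80.5 CPM against 45.9 to 50.4, Ifi27 at 363 CPM against 169.7 to 200.4, Ifi35 at 34.0 CPM against 24.04 to 25.8 and Ifi44 at 25.6 CPM against 2.48 to 7.74. The last were Trim30a at 19.04 CPM against 4.71 to 6.62, Rtp4 at 25.4 CPM against 5.27 to 10.3 and Sp100 at 10.7 CPM against 4.61 to 5.81.

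Knockout replicate 2 of HFCFD8W+T10D stood apart for 13 members, among them Ddx58 at 50.8 CPM against 26.5 to 30.7, Ifih1 at 69.9 CPM against 41.1 to 48.5, Dhx58 at 26.2 CPM against 10.8 to 14.3 and Isg15 at 59.9 CPM against 15.5 to 20.8. Also far above the rest were Ifit1 at 34.1 CPM against 14.99 to 20.1, Ifit2 at 46.1 CPM against 11.7 to 19.2, Ifit3 at 91.2 CPM against 37.4 to 43.7 and Oas2 at 7.49 CPM against 2.44 to 3.25. The same held for Oasl2 at 65.4 CPM against 16.1 to 25.9, Gbp3 at 87.4 CPM against 24.7 to 39.4, Ifi44 at 64.2 CPM against 11.99 to 25.4 and Trim30a at 42.4 CPM against 11.7 to 19.8. Further apart from the others lay Rtp4 at 30.8 CPM against 13.8 to 17.2.

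The other 13 sets were spread over mice. Among controls of HFCFD2W, a liver stood apart for Ifih1 at 57.0 CPM in replicate 4 against 48.5 to 50.9, Irf9 at 36.96 CPM in replicate 2 against 23.7 to 25.9, Stat2 at 16.3 CPM in replicate 5 against 21.1 to 22.1, Ifit3 at 36.8 CPM in replicate 2 against 19.7 to 21.5, Oasl2 at 5.53 CPM in replicate 5 against 4.69 to 4.90 and Rsad2 at 21.8 CPM in replicate 2 against 7.27 to 10.6. Among controls of HFCFD8W+T10D, a liver stood apart for Irf1 at 26.9 CPM in replicate 3 against 20.3 to 21.9, Stat2 at 11.8 CPM in replicate 2 against 20.7 to 24.3, Parp14 at 45.7 CPM in replicate 3 against 32.1 to 35.7 and Ifi35 at 19.4 CPM in replicate 2 against 14.1 to 15.3. Among controls of HFCFD12W+T10W, a liver stood apart for Ifit3 at 21.98 CPM in replicate 1 against 15.4 to 17.002 and Ifit3b at 5.44 CPM in replicate 2 against 3.56 to 3.94. Among knockouts of HFCFD12W+T10W, a liver stood apart for Gbp3 at 15.4 CPM in replicate 3 against 23.99 to 27.3.

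The genotype effect differed between experiments, by an interaction test in edgeR with adjustment over all genes, for 5 members. On the log2 scale, that of Irf1 was larger by 1.40 in HFCFD8W+T10D and by 1.24 in HFCFD12W+T10W than in HFCFD2W, and that of Ddx58 by 0.96 and 0.82. Ifi35 had a larger effect by 0.61 in HFCFD8W+T10D and Ifit2 by 1.44 in HFCFD12W+T10W, both against HFCFD2W. Ifi27 differed by -0.77 between HFCFD12W+T10W and HFCFD8W+T10D, a call that was lost without the low-count filter (adjusted p 0.0591) and with upper quartile scaling (0.0833). Larger effects than in HFCFD2W were called for 8.33% of the members in HFCFD8W+T10D, against 4.45% of all genes. In HFCFD12W+T10W they were 8.33% against 13.4%. Smaller effects in HFCFD12W+T10W than in HFCFD8W+T10D were 2.78% against 5.49%. The first of these shares rests on 3 of 36 members, so it is not read as a difference from all genes. The other shares lay below those of all genes.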

How the results depend on the processing

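In HFCFD2W, 8 members were higher without the low-count filter and 8 with DESeq2, against 4, and 0 were lower at a fold over 2. Shares of all genes were not computed for the fits without the filter, with DESeq2 or with the replicate block. The same holds for most fits with a mouse left out, so these counts cannot be set against a background. In HFCFD8W+T10D a fold over 2 left 18 higher. The smaller effect of Ifi27 in HFCFD12W+T10W than in HFCFD8W+T10D did not pass without the filter or with upper quartile scaling, so 0 members were smaller. The cause of these shifts was not tested. With each mouse left out in turn, 2 to 9 members were higher in HFCFD2W, 22 to 31 in HFCFD8W+T10D and 24 to 29 in HFCFD12W+T10W, and 1 to 4 lower in HFCFD2W and 0 to 0 in the others. The medians had ranges of 0.12 to 0.64, 0.78 to 1.16 and 0.84 to 1.05. Members with a larger effect ran from 3 to 14 for HFCFD8W+T10D and from 2 to 15 for HFCFD12W+T10W over HFCFD2W, and members with a smaller one in HFCFD12W+T10W than in HFCFD8W+T10D from 0 to 2. The counts of 14 and 15 came from the fit without knockout replicate 5 of HFCFD2W. Between controls, members higher in HFCFD8W+T10D than in HFCFD2W ran from 8 to 11 and lower from 4 to 5, and higher in HFCFD12W+T10W from 1 to 1.

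The replicate number as a block gave 3, 26 and 26 members higher and 0 lower in HFCFD2W, where Irf1 had an adjusted p of 0.0771, a Stat2 effect of 0.0093 there, and 0 smaller effects in HFCFD12W+T10W than in HFCFD8W+T10D. Same-number mice correlated at -0.39 to 0.07, -0.12 to 0.19 and -0.07 to 0.25, and 0 of 8, 1 of 10 and 1 of 10 mice correlated best with their own number, so the numbers pair no mice and the block stayed an alternative.

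Members that changed sign were not called in edgeR's test with all mice kept. One of them, Rtp4 in HFCFD2W, was called lower by that test without knockout replicate 5 (-0.72, adjusted p 0.0468). In HFCFD2W, Ifi35 was at -0.0028 without the filter, -0.0084 with upper quartile scaling, -0.0055 with DESeq2 and -0.0021 in the joint fit. Dtx3l in HFCFD12W+T10W was at 0.017 with upper quartile scaling. With each mouse left out in turn, effects in HFCFD2W spanned -0.10 to 0.055 for Ifi35, -0.72 to 0.066 for Rtp4, -0.15 to 0.031 for Stat2, -0.044 to 0.59 for Rsad2, -0.043 to 0.35 for Sp100, -0.13 to 0.77 for Ifit1, -0.21 to 0.42 for Ifit2, -0.32 to 0.83 for Ifit3 and -0.42 to 0.72 for Ifit3b, the lowest Ifit values being those without knockout replicate 5. Dtx3l spanned -0.045 to 0.13 in HFCFD8W+T10D and -0.16 to 0.010 in HFCFD12W+T10W. At these depths Oas2 in HFCFD2W could not be tested.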
